A study of Mus musculus with 17 samples.

Results

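B cells of mice with a deletion of Atm alone (Atm MT) were compared with B cells of wild-type mice (WT), to ask what the loss of this kinase changes in B cells that carry no Sf3b1 mutation. The comparison took in the 9 libraries labelled Atm MT (n = 6) or WT (n = 3), of 17 libraries in the series. All 9 are labelled C57BL/6 and B cell, and their titles call the mice old. The series title places the lesions of the model in B cells only, while the promoter that drives the deletion and the part of Atm that was removed are not given in the sources used here. Mice with both lesions and no leukaemia label (DM, n = 3) and mice with the Sf3b1 mutation alone (Sf3b1 MT, n = 3), of the same strain and age label, were set beside them where named. The labels do not say that replicates came from separate mice, so p-values measure only the spread between these samples, which may be technical.

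Atm encodes a large kinase that is activated by DNA double-strand breaks and phosphorylates p53, the checkpoint kinase Chk2 and histone H2AX. In B cells it acts on the breaks that arise during antibody gene assembly and class switching, and loss of the gene is a recurrent lesion of human chronic lymphocytic leukaemia. The p53 protein it activates is a transcription factor whose targets include the cell cycle inhibitor Cdkn1a, the ubiquitin ligase Mdm2 and the death receptor Fas.

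Expression was deposited as TPM, each gene's length-corrected share of the transcripts of its library. Of 18554 gene symbols, 9898 had at least 1 TPM in at least 2 of the 17 libraries and were tested. Differences are given on the log2(TPM + 1) scale as Atm MT minus WT, with the standard error (SE), and this scale understates the change of low genes. A gene is said to rise or fall where limma gave an adjusted p under 0.05 over all tested genes. Values in TPM are by library, or means ± SD. The depth of the libraries is unknown, so the precision of a single value cannot be given, and in bulk RNA fewer cells of a type cannot be told apart from less RNA per cell. Positions are those of GENCODE M21 on mouse build GRCm38.

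Atm, the targeted gene (chromosome 9, 53439149 to 53536740, minus strand), showed no difference in level past the threshold. The Atm MT libraries held 4.99, 5.30, 6.25, 8.67, 4.24 and 15.56 TPM, against 7.57, 8.87 and 6.48 TPM in WT. The groups overlapped, and Atm MT replicate 6 had the highest value of all 9 libraries. The mean was 7.50 ± 4.24 TPM in Atm MT and 7.64 ± 1.20 TPM in WT (log2 −0.13 ± 0.31, adjusted p = 0.949). Gene-level TPM do not resolve exons, so these values check neither the deletion nor the labels.

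The Atm MT libraries held less RNA of the transcription factor T-bet (Tbx21), the death receptor Fas and the ectonucleotidase CD73 (Nt5e). None of these falls passed without WT replicate 1 or without WT replicate 2, and none of these genes differed from Sf3b1 MT past the threshold. The Atm MT libraries also held more of the aspartic protease cathepsin E (Ctse), a call lost in most omissions of a library, and of the oxysterol hydroxylase Cyp39a1. Among the calls that held in every setting tried were the falls of Fzd6 and Rab6b and the rise of Gprc5b. In DM against Sf3b1 MT, Rab6b and Gprc5b passed in the same direction, and Fzd6 did not (log2 −0.43, adjusted p = 0.631). In all, 64 genes passed (0.647% of those tested), of which 20 rose (0.202%) and 44 fell (0.445%). At an unadjusted p under 0.05 there were 1118 genes (11.3%), 400 of them higher (4.04%) and 718 lower (7.25%) in Atm MT. The groups did not overlap in 62 of the 64 genes, against 5.09% of all tested genes: in 19 of the 20 rises (background 1.62%) and in 43 of the 44 falls (background 3.48%). The same libraries chose the 64 genes, so this separation follows largely from the calls and adds no support to them. Over all tested genes the median log2 difference was −0.05, with 58.9% of genes below 0. Some of the changed genes were of low level: 9 of the 20 rises averaged under 5 TPM in Atm MT, and 15 of the 44 falls averaged under 5 TPM in WT.

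The libraries of each group differed among themselves in the RNA of cell types other than B cells, and these values belong beside the results that follow. B-cell markers were high in all 9 libraries, with a summed level of 3594 to 5146 TPM over 10 genes in Atm MT and 4433 to 5749 TPM in WT, and 0 of 10 passed (1 lower at an unadjusted p under 0.05). Markers of monocytes and macrophages summed to 1719 to 2635 TPM in Atm MT replicates 1 to 4 and 763 to 1051 TPM in replicates 5 and 6, against 956 to 1854 TPM in WT. The highest WT sum was that of replicate 3, above Atm MT replicate 1. That WT library also had a neutrophil sum of 1142 TPM, against 66.7 and 105 TPM in WT replicates 1 and 2. The list of monocytes and macrophages went as follows. None of its 20 tested genes passed, 14 were higher at an unadjusted p under 0.05, and the list median was 1.93, or 0.27 without Atm MT replicates 1 to 4. Clec4f, a marker of liver macrophages, was at 0 in all 9 libraries. C1qa, a complement subunit made by macrophages, measured 120, 178, 241 and 208 TPM in Atm MT replicates 1 to 4 and 28.1 and 11.2 TPM in replicates 5 and 6, against 8.69, 20.7 and 28.2 TPM in WT. Natural killer cell markers summed to 3.09 to 12.4 TPM in Atm MT replicates 1 to 4 and to 16.8 and 27.9 TPM in replicates 5 and 6, against 24.1 to 29.0 TPM in WT. Of these 11 genes Klrb1c fell and 6 others were lower at an unadjusted p under 0.05 (median −0.82, or −0.08 without Atm MT replicates 1 to 4). Dendritic cell markers followed the same division, at 51.1 to 75.1 TPM in Atm MT replicates 1 to 4 and 92.0 to 95.0 TPM in replicates 5 and 6, against 93.4 to 108 TPM in WT (0 of 13 passed, 6 lower at an unadjusted p under 0.05). Neutrophil markers ranged over 101 to 829 TPM in Atm MT, against 66.7 to 1142 TPM in WT, and erythroid markers over 38.0 to 2574 TPM, against 169 to 401 TPM, with 0 passing in either list (2 neutrophil and 0 erythroid genes at an unadjusted p under 0.05). T-cell markers summed to 21.1 to 66.0 TPM in Atm MT, against 56.7 to 66.0 TPM in WT (0 of 10 passed, 1 higher and 4 lower at an unadjusted p under 0.05), and of the 2 stromal and endothelial markers tested neither passed. Xist, made by the inactive X chromosome of female cells, measured 29.1, 37.8 and 52.8 TPM in Atm MT replicates 1, 2 and 4 and at most 0.06 TPM in the others, against 38.6, 47.0 and 0.08 TPM in WT, so both groups hold libraries with and without it. The division into replicates 1 to 4 and 5 and 6 was drawn after the data were seen. Without Atm MT replicates 1 to 4, 40 genes passed, 20 of them among the 64, and without replicates 5 and 6, 423 passed, including all 64. Of the genes described here, Fzd6, Dnm3, Rab6b, Arhgap8, Gprc5b, Cpne4, Col6a4 and Gm12191 passed in each of the 9 omissions of a library and in all 10 other settings tried.

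**Figure D1:**
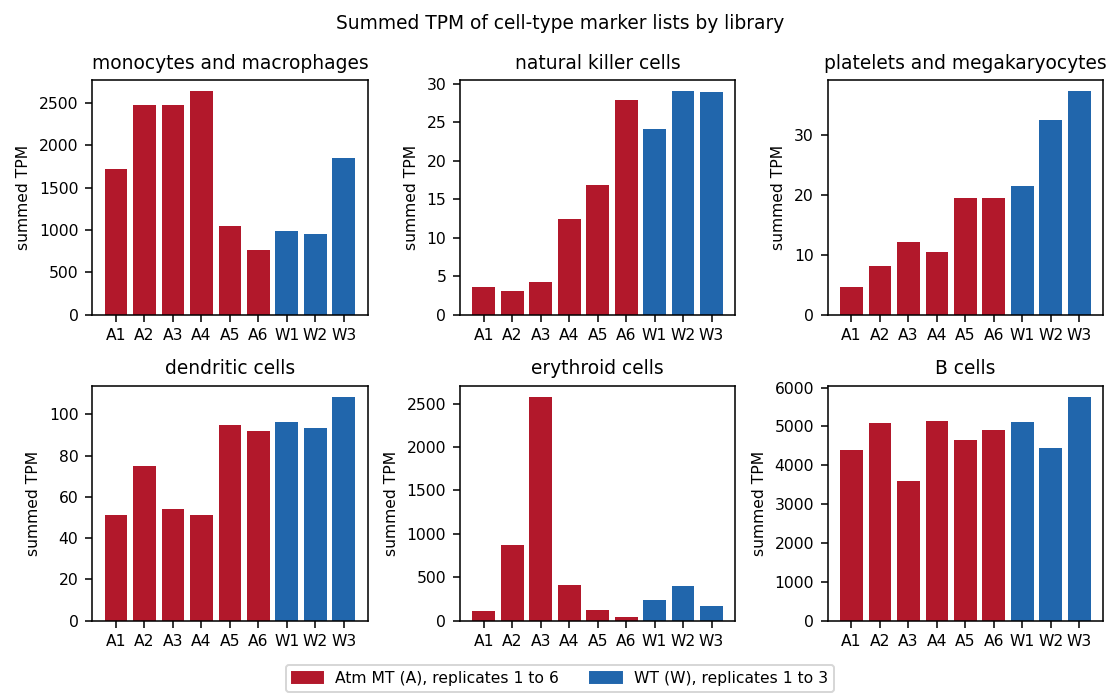
Summed TPM of 6 lists of cell-type markers in each library (bars; Atm MT replicates 1 to 6 as A1 to A6 in red, WT replicates 1 to 3 as W1 to W3 in blue; each panel has its own axis in TPM). Macrophage markers are highest in Atm MT replicates 2 to 4, and WT replicate 3 (1854 TPM) lies above Atm MT replicate 1 (1719 TPM). Natural killer and dendritic cell markers are low in Atm MT replicates 1 to 4. The B-cell markers span 3594 to 5146 TPM in Atm MT and 4433 to 5749 TPM in WT.

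Of the falls, 7 are described together as genes with known roles in immune cells, a grouping made after their values were seen. Tbx21, Fas and Nt5e are in the list of age-associated and memory B-cell genes, Cxcl10 in that of interferon-stimulated genes, Traf1 in that of NF-κB genes, and Il2rb and Fgl2 in none. Natural killer cells also make Tbx21 and Il2rb, and their markers, with a list median of −0.82, are low in Atm MT replicates 1 to 4, at 3.09 to 12.4 TPM, against 24.1 to 29.0 TPM in WT. The part of those cells in these falls was not tested. Tbx21 (chromosome 11), whose product T-bet drives the age-associated B-cell state and interferon-γ responses, had a lowest value of 3.44, a median of 4.79 and a highest of 14.1 TPM in Atm MT, against 22.4, 22 and 20.0 TPM in WT. The groups did not overlap, the nearest Atm MT library being replicate 4 (log2 −1.74 ± 0.31, adjusted p = 0.0148). Fas (chromosome 19), a death receptor and p53 target that is induced on activated B cells, had 3.92, 5.78 and 8.22 TPM as lowest, median and highest in Atm MT, against 25.7, 18.5 and 12.8 TPM in WT (log2 −1.51 ± 0.27, adjusted p = 0.0144). All 6 Atm MT libraries lay below all 3 WT libraries. Nt5e (chromosome 9), which marks memory B cells and makes extracellular adenosine, ranged over 2.27 to 9.76 TPM in Atm MT, against 25.6, 16.9 and 10.2 TPM in WT (log2 −1.65 ± 0.36, adjusted p = 0.0493). Here Atm MT replicate 4 and WT replicate 3 almost met. Il2rb (chromosome 15), the β chain of the receptors for interleukins 2 and 15, averaged 4.53 ± 2.49 TPM in Atm MT and 20.8 ± 4.78 TPM in WT (log2 −2.07 ± 0.35, adjusted p = 0.0124). Fgl2 (chromosome 5), a secreted fibrinogen-like immune regulator, averaged 15.1 ± 7.67 TPM in Atm MT and 51.4 ± 5.32 TPM in WT (log2 −1.85 ± 0.35, adjusted p = 0.0221). Cxcl10 (chromosome 5), an interferon-induced chemokine, ranged over 1.33 to 5.88 TPM in Atm MT, against 33.8, 19.1 and 6.54 TPM in WT (log2 −2.16 ± 0.40, adjusted p = 0.0196). Its WT values differed by more than 5 times among themselves, and all lay above all of Atm MT. Traf1, an adaptor of tumour necrosis factor receptors that NF-κB induces, ranged over 3.07 to 5.62 TPM in Atm MT, against 12.8, 9.69 and 7.59 TPM in WT (adjusted p = 0.0348). These falls leaned on single WT libraries. Without WT replicate 1 only Il2rb of the 7 still passed, the others having adjusted p = 0.0899 to 0.282, and without WT replicate 2 none did (adjusted p = 0.0757 to 0.171). Fgl2 was lost without WT replicate 3 (adjusted p = 0.0697), and Nt5e and Traf1 without Atm MT replicate 1, 2 or 3 (adjusted p = 0.0618 to 0.0876) and Nt5e without replicate 5 (adjusted p = 0.0579). With Atm MT replicates 1 to 4 left out, Tbx21 (adjusted p = 0.0238) and Fgl2 (adjusted p = 0.0304) passed and the other 5 did not (adjusted p = 0.0724 to 0.325). Traf1 and Nt5e were also lost with median-ratio scaling (adjusted p = 0.0621 and 0.0874), and in a fit of only the 9 libraries Il2rb and Fas passed and the other 5 did not (adjusted p = 0.0701 to 0.112).

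A second set of falls holds genes with no one function in common, several of them better known from other tissues. Fzd6 (chromosome 15), a Frizzled receptor for Wnt ligands, had 0.06, 0.44 and 0.73 TPM as lowest, median and highest in Atm MT, against 12.8, 4.25 and 6.51 TPM in WT. The groups lay wholly apart (log2 −2.57 ± 0.24, adjusted p = 2.04e-04), and Fzd6 passed in all 9 omissions of a library. The Sf3b1 MT libraries, which lack the Atm lesion, held 1.22, 0.87 and 0.75 TPM of Fzd6, each below every WT library. In DM, Fzd6 measured 0.46, 0.46 and 0.39 TPM. Dnm3 (chromosome 1), a dynamin of membrane fission, had 0.66, 0.92 and 2.22 TPM as lowest, median and highest in Atm MT, against 20.8, 7.46 and 5.92 TPM in WT (log2 −2.36 ± 0.32, adjusted p = 0.00260), and it too passed in all 9 omissions. Ramp3 (chromosome 11), which escorts the receptors for calcitonin-family peptides to the cell surface, had 0, 0.335 and 4.13 TPM as lowest, median and highest in Atm MT, against 18.8, 7.59 and 7.74 TPM in WT. Its log2 difference of −2.88 ± 0.50 was the lowest of the 64 genes (adjusted p = 0.0140), and without WT replicate 1 it did not pass (adjusted p = 0.0984). Hsd11b1 (chromosome 1), which regenerates active glucocorticoid, ranged over 5.72 to 9.95 TPM in Atm MT, against 55.1, 24.6 and 23.4 TPM in WT (log2 −1.87 ± 0.25, adjusted p = 0.00260). Spon1, a secreted matrix protein, averaged 1.16 ± 0.603 TPM in Atm MT and 10.9 ± 8.36 TPM in WT (log2 −2.29 ± 0.34, adjusted p = 0.00482). Both passed in all 9 omissions, though neither passed with Atm MT replicates 1 to 4 left out (adjusted p = 0.0822 and 0.150). Klk1b27, a kallikrein protease, Msc, the transcription factor musculin, and Zfyve21 also fell, with adjusted p = 0.0144 to 0.0311. Klk1b27 averaged 0.767 ± 0.431 TPM in Atm MT and 7.72 ± 5.37 TPM in WT, and as a member of a large family of near-identical genes its reads may be split among copies. Msc averaged 0.120 ± 0.112 TPM in Atm MT and 3.27 ± 2.71 TPM in WT, and Zfyve21 2.19 ± 0.544 TPM in Atm MT and 9.28 ± 5.19 TPM in WT. All 3 were lost without WT replicate 1 (adjusted p = 0.0965 to 0.210). Klk1b27 was also lost without WT replicate 3 and without replicate 1 or 3 of Atm MT (adjusted p = 0.0535 to 0.140), and Msc without WT replicate 2 and without replicate 1, 2 or 3 of Atm MT (adjusted p = 0.0563 to 0.155). Neither of these 2 passed with median-ratio scaling (adjusted p = 0.0522 and 0.0529) or in a fit of only the 9 libraries (adjusted p = 0.0926 and 0.0998).

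**Figure D2:**
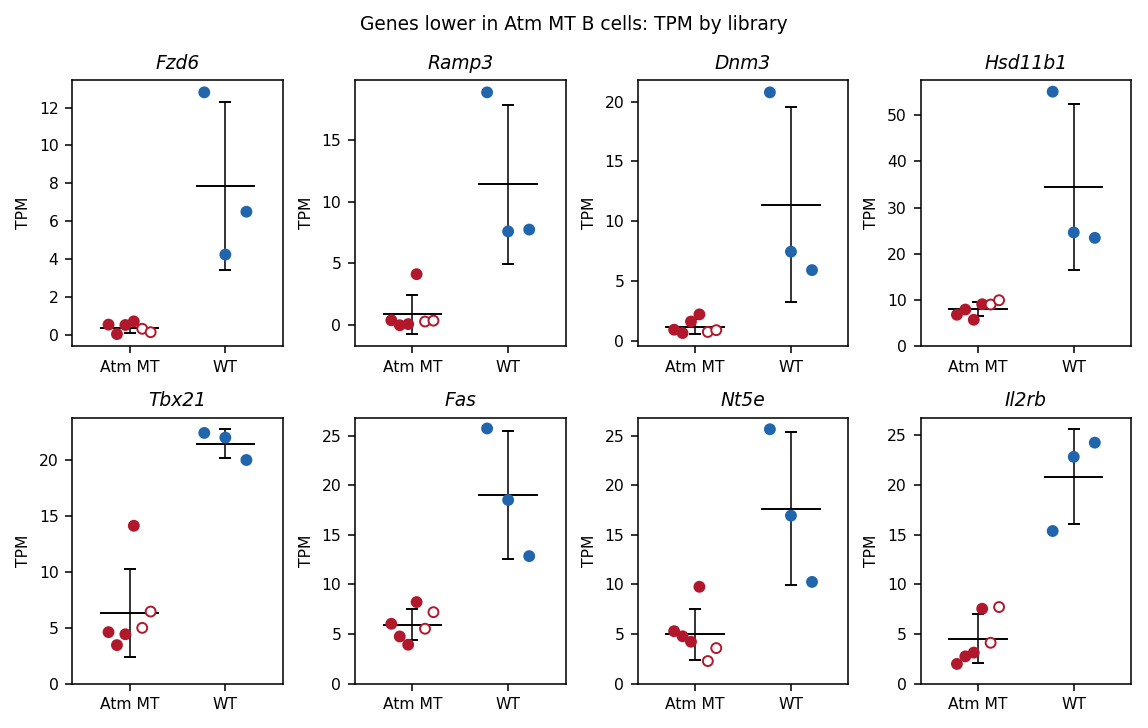
TPM of 8 genes that fell, by library (left, Atm MT in red, filled for replicates 1 to 4 and open for replicates 5 and 6; right, WT in blue; lines and bars are means ± SD). In each panel all 6 Atm MT libraries lie below all 3 WT libraries, and in Fzd6, Ramp3, Dnm3 and Hsd11b1 1 WT library stands well above the other 2.

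Platelet genes were among the falls. Ppbp (chromosome 5), a platelet chemokine, had 0.42, 0.70 and 2.83 TPM as lowest, median and highest in Atm MT, against 4.68, 8.60 and 9.51 TPM in WT (log2 −2.04 ± 0.32, adjusted p = 0.00717). Pf4, platelet factor 4, had 0.20, 1.03 and 4.37 TPM in Atm MT, against 5.06, 8.30 and 10.5 TPM in WT (log2 −2.02 ± 0.40, adjusted p = 0.0289). Parvb, an integrin-linked actin adaptor abundant in platelets, averaged 0.717 ± 0.892 TPM in Atm MT and 4.92 ± 0.706 TPM in WT (log2 −1.93 ± 0.35, adjusted p = 0.0151). In each of the 3 genes the groups did not overlap, and the highest Atm MT value was that of replicate 5 or 6. Ppbp and Pf4 are the members of the 9 tested platelet markers that passed, with 6 lower at an unadjusted p under 0.05. The summed level of that list was 4.67 to 12.2 TPM in Atm MT replicates 1 to 4 and 19.5 TPM in both replicates 5 and 6, against 21.4, 32.5 and 37.3 TPM in WT, and the part of platelets in these falls was not tested. None of the 3 genes passed with Atm MT replicates 1 to 4 left out (adjusted p = 0.129 to 0.255). Ppbp was lost without WT replicate 2 (adjusted p = 0.0516), Parvb without WT replicate 1, 2 or 3 (adjusted p = 0.0575 to 0.0871), and Pf4 without any 1 WT library and without replicate 1 or 2 of Atm MT (adjusted p = 0.0571 to 0.131). Parvb and Pf4 did not pass in a fit of only the 9 libraries (adjusted p = 0.0815 and 0.142).

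The rises included an endosomal protease and enzymes of sterol, retinal and methylglyoxal metabolism. Cyp39a1 (chromosome 17), which hydroxylates 24-hydroxycholesterol, had 9.41, 13.7 and 19.8 TPM as lowest, median and highest in Atm MT, against 4.22, 5 and 2.41 TPM in WT (log2 1.58 ± 0.25, adjusted p = 0.00817). The groups were wholly apart and the call held in all 9 omissions, but not with Atm MT replicates 1 to 4 left out (adjusted p = 0.129). Ctse (chromosome 1), an aspartic protease of the endosomal pathway, had 73.8, 90.6 and 144 TPM in Atm MT, against 20.3, 37.6 and 27.1 TPM in WT (log2 1.74 ± 0.37, adjusted p = 0.0472). Although no library of the groups overlapped, it passed in 1 of 9 omissions, that of Atm MT replicate 6 (adjusted p = 0.0563 to 0.256 in the other 8). Dhrs3 (chromosome 4), which reduces retinal to retinol, averaged 4.47 ± 1.88 TPM in Atm MT and 0.900 ± 0.590 TPM in WT (log2 1.51 ± 0.30, adjusted p = 0.0289). Glo1 (chromosome 17), a glyoxalase that detoxifies methylglyoxal, had 28.1, 31.4 and 51.5 TPM in Atm MT, against 17, 18.8 and 20.5 TPM in WT (log2 0.82 ± 0.17, adjusted p = 0.0413). Without any 1 WT library neither Dhrs3 nor Glo1 passed (adjusted p = 0.0659 to 0.222), nor did Glo1 without Atm MT replicate 4 or 5 (adjusted p = 0.0596 and 0.0579). With replicates 1 to 4 left out, Glo1 had adjusted p = 0.0790, Dhrs3 0.244 and Ctse 0.264. Ctse was lost with median-ratio scaling (adjusted p = 0.0525), and Dhrs3 and Glo1 in a fit of only the 9 libraries (adjusted p = 0.0873 and 0.163).

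A further 6 rises were, in most cases, higher in Atm MT replicates 1 to 4, the libraries rich in macrophage markers, than in replicates 5 and 6. Ear2 (chromosome 14), an eosinophil-associated ribonuclease, measured 23.6, 29.8, 33.9 and 45.1 TPM in Atm MT replicates 1 to 4 and 14.3 and 16 TPM in replicates 5 and 6, against 3.25, 4.99 and 12.3 TPM in WT (log2 1.91 ± 0.35, adjusted p = 0.0196). It belongs to a family of close copies, among which reads may be split. Aif1 (chromosome 17), an actin-binding protein of macrophages, had 11.9, 20.6 and 41.6 TPM as lowest, median and highest in Atm MT, against 7.09, 5.62 and 9.82 TPM in WT (log2 1.45 ± 0.29, adjusted p = 0.0289). Acp2, a lysosomal acid phosphatase, and Rgl1, an activator of Ral GTPases, were likewise lowest in replicates 5 and 6 among the Atm MT libraries. Acp2 averaged 7.38 ± 3.05 TPM in Atm MT and 2.24 ± 0.833 TPM in WT (adjusted p = 0.0354), and Rgl1 6.42 ± 2.23 TPM in Atm MT and 2.31 ± 0.804 TPM in WT (adjusted p = 0.0482). Mcoln2 (chromosome 3), an endolysosomal cation channel of lymphocytes, had 13.3, 15.7 and 35.0 TPM in Atm MT, against 8.02, 7.39 and 7.98 TPM in WT (log2 1.18 ± 0.25, adjusted p = 0.0424). Afp, the fetal serum protein α-fetoprotein, averaged 3 ± 1.44 TPM in Atm MT and 0.620 ± 0.197 TPM in WT (adjusted p = 0.0192). Across these 6 genes the groups did not overlap, but none passed with Atm MT replicates 1 to 4 left out (adjusted p = 0.0533 to 0.384), and the part of macrophage RNA in them was not tested. None passed without WT replicate 1 (adjusted p = 0.0925 to 0.267) or WT replicate 2 (adjusted p = 0.118 to 0.171). Mcoln2 was lost without WT replicate 3 (adjusted p = 0.115), and Mcoln2, Aif1, Acp2 and Rgl1 without Atm MT replicate 1 (adjusted p = 0.0665 to 0.0862), with Rgl1 also lost without Atm MT replicate 2, 3 or 4 (adjusted p = 0.0720 to 0.0874), Acp2 without 2 or 3 (adjusted p = 0.0701 for each), Aif1 without 2 (adjusted p = 0.0575) and Mcoln2 without 4 (adjusted p = 0.0501). None of the 6 passed in a fit of only the 9 libraries (adjusted p = 0.110 to 0.166), nor Mcoln2 with median-ratio scaling (adjusted p = 0.0522).

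**Figure D3:**
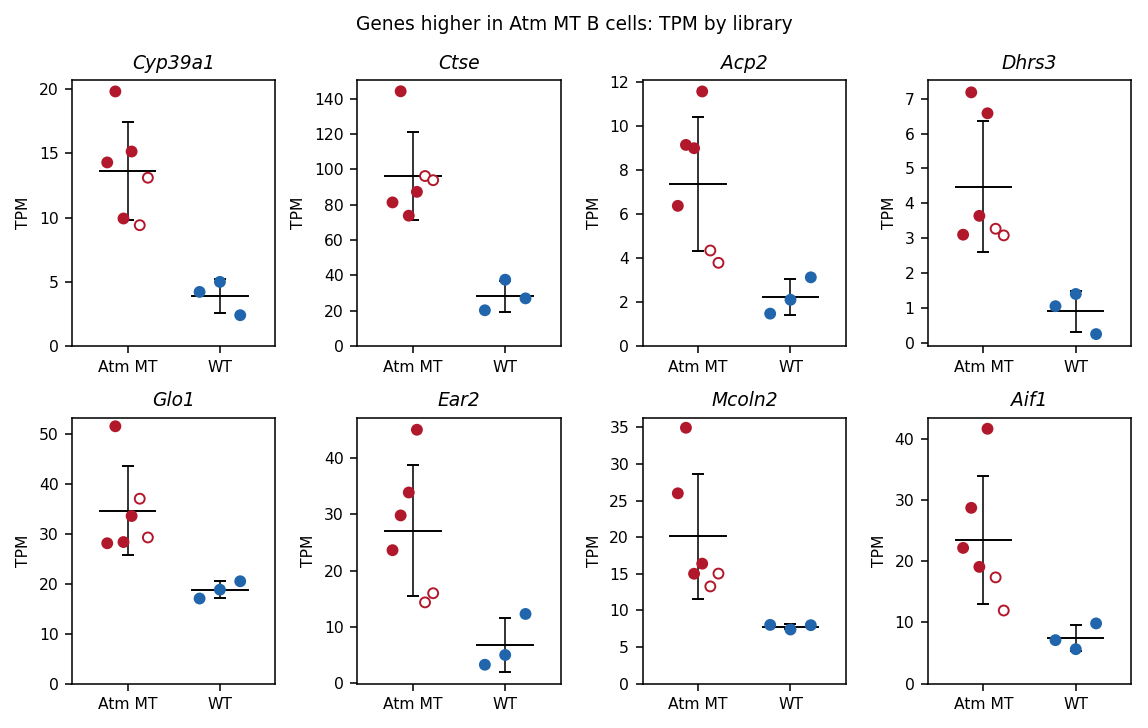
TPM of 8 genes that rose, by library (left, Atm MT in red, filled for replicates 1 to 4 and open for replicates 5 and 6; right, WT in blue; lines and bars are means ± SD). All 6 Atm MT libraries lie above all 3 WT libraries in each panel, and among the Atm MT libraries Ear2, Acp2 and Aif1 are lowest in the open symbols.

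The Sf3b1 MT libraries give a second set without the Atm lesion. Xist measured 0.02, 0.03 and 0.03 TPM in them, so unlike Atm MT and WT this set holds no library with it. In DM it measured 0.02, 27.5 and 0.01 TPM. The part of this difference in the comparisons that use Sf3b1 MT was not tested. The direct contrast of Atm MT with Sf3b1 MT, both single mutants, called 161 genes (1.63% of those tested), 115 higher (1.16%) and 46 lower (0.465%) in Atm MT. It shares the 6 Atm MT libraries with the contrast against WT, so it is no independent test of the same genes. Of the 20 rises 13 passed as higher in it, and of the 44 falls 11 passed as lower. The 7 immune genes did not pass. Tbx21 averaged 6.33 ± 3.93 TPM in Atm MT and 6.07 ± 1.59 TPM in Sf3b1 MT (log2 −0.05, adjusted p = 0.940), and Fas 5.94 ± 1.58 TPM in Atm MT and 6.31 ± 1.49 TPM in Sf3b1 MT (log2 −0.09, adjusted p = 0.876). Nt5e (log2 0.63, adjusted p = 0.300), Fgl2 (log2 0.12, adjusted p = 0.875), Cxcl10 (log2 −0.24, adjusted p = 0.763), Il2rb (log2 −0.88, adjusted p = 0.152), Traf1 (log2 −0.41, adjusted p = 0.249), Fzd6 (log2 −0.49, adjusted p = 0.243), Dnm3 (log2 −0.43, adjusted p = 0.429) and Ramp3 (log2 −0.72, adjusted p = 0.397) did not pass either. For these 10 genes the WT libraries were all above those of both mutants, and a p that misses the threshold does not show that the mutants are alike. Cyp39a1 did pass, at 13.6 ± 3.81 TPM in Atm MT and 3.34 ± 0.924 TPM in Sf3b1 MT (log2 1.73, adjusted p = 0.00285).

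DM against Sf3b1 MT is the same lesion in libraries that share none with Atm MT against WT, and was chosen as a comparison after the data were seen. It called 12 genes (0.121%), 4 higher (0.0404%) and 8 lower (0.0808%) in DM. With median-ratio scaling it called 16, 10 higher and 6 lower. Among the 20 rises 3 passed as higher (Col6a4, Gprc5b and Gm12191), and among the 44 falls 5 passed as lower (Rab6b, Hcfc1r1, Apobec3, Sh3bgrl3 and Pink1). Of the 20 rises, 18 had a log2 difference above 0 in DM minus Sf3b1 MT, and in 14 all DM libraries lay above all Sf3b1 MT libraries, against 3.88% of all tested genes. Of the 44 falls, 31 were below 0 and 13 had all DM libraries below all Sf3b1 MT libraries, against 14.7% of all tested genes. No share of all tested genes on each side of 0 was taken, so nothing is read from the 18 and the 31. The median of DM minus Sf3b1 MT over all tested genes was −0.13 with a pseudocount of 0.1 and 0.055 with median-ratio scaling. The test of whether the Atm effect differs between Sf3b1-mutant and Sf3b1-wild-type cells gave 0 genes past the threshold in limma (546 at an unadjusted p under 0.05, 5.52%, and a smallest adjusted p of 0.365). Of the 64 genes 41 had an unadjusted p under 0.05 in it, all with the opposite sign to Atm MT minus WT. That contrast is a term of this one and chose the 64, so nothing is read from the count.

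**Figure D4:**
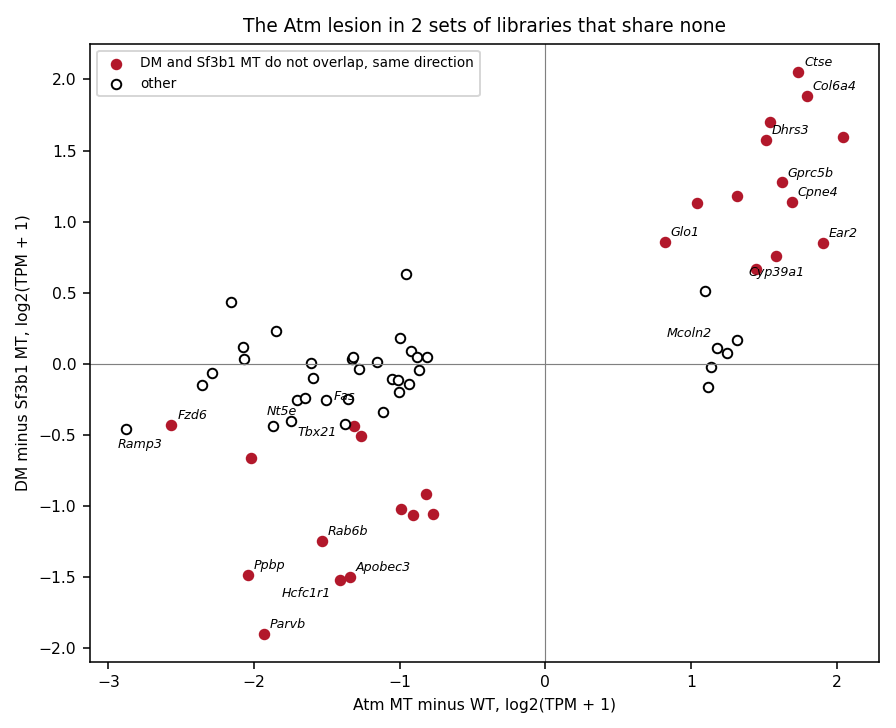
Log2 difference of 63 of the 64 genes in Atm MT minus WT (x axis) and in DM minus Sf3b1 MT (y axis), from libraries that share none; Gm12191 lies off the range of both axes, at 7.04 and 5.56, and is not drawn. Red points mark genes whose DM and Sf3b1 MT libraries do not overlap, in the direction of Atm MT against WT; most rises are red, while Ramp3, Tbx21, Fas and Nt5e lie between −0.46 and −0.24 on the y axis.

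In 21 of the 64 genes, 10 rises and 11 falls, all 9 libraries with the Atm lesion (Atm MT and DM) lay apart from all 6 without it (WT and Sf3b1 MT). Over all tested genes 22 were wholly higher (0.222%) and 41 wholly lower (0.414%) with the lesion. The Atm MT and WT libraries also chose the 64, so only the place of the DM and Sf3b1 MT libraries is new here. Nothing is read from the 21 against the share over all genes. Several of the 21 were near 0 on one side. Col6a4, a collagen VI chain, measured 1.21 to 4.06 TPM in Atm MT and 1.32 to 5.03 TPM in DM, and was listed at 0 in all 6 WT and Sf3b1 MT libraries (adjusted p = 0.00780 against WT). Arhgap8, a GTPase-activating protein, measured 0.89 to 2.68 TPM in Atm MT and 1.01 to 1.52 TPM in DM, and was likewise listed at 0 in those 6 (adjusted p = 0.00450). Ifi202b, an interferon-inducible DNA-binding protein, measured 0.54 to 1.70 TPM in Atm MT and 0.65 to 2.30 TPM in DM, against 0 in the same 6 libraries (adjusted p = 0.0311). Cpne4, a calcium-dependent copine, measured 1.66 to 3.65 TPM in Atm MT and 0.62 to 1.89 TPM in DM, against at most 0.09 TPM in WT and 0.07 TPM in Sf3b1 MT (adjusted p = 0.00184). Gprc5b, an orphan G protein-coupled receptor, measured 1.34 to 3.58 TPM in Atm MT and 1.49 to 1.99 TPM in DM, against at most 0.21 TPM in WT and 0.12 TPM in Sf3b1 MT (adjusted p = 0.00106). Rab6b, a Golgi trafficking GTPase, went the other way, at 0.01 to 0.18 TPM in Atm MT and 0.02 to 0.13 TPM in DM, against 1.38, 1.97 and 3.28 TPM in WT and 1.33 to 1.78 TPM in Sf3b1 MT (log2 −1.53 ± 0.17, adjusted p = 3.62e-04). Of these 6, Ifi202b was lost in 6 of 9 omissions (WT replicates 1, 2 and 3 and Atm MT replicates 1, 2 and 4, adjusted p = 0.0510 to 0.146), while the other 5 passed in all 9. Ifi202b did not pass in a fit of only the 9 libraries either (adjusted p = 0.0570).

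Further genes of this kind, described next, were lower with the lesion, and most of them were of higher level. Ctse, Glo1, Dhrs3 and Gm12191, given elsewhere, are of this kind too and were higher with it. Fzd6 and the platelet-related Ppbp and Parvb, also given elsewhere, are of this kind and were lower with it. Apobec3 (chromosome 15), a cytidine deaminase that restricts retroviruses, had 16.4, 34.4 and 42.5 TPM as lowest, median and highest in Atm MT, against 74.7, 91.6 and 79.4 TPM in WT (log2 −1.34 ± 0.22, adjusted p = 0.0115). In DM it measured 31.9, 30.7 and 38.4 TPM, against 97.2, 96.2 and 96.2 TPM in Sf3b1 MT. Hcfc1r1, a regulator of host cell factor 1, averaged 10.5 ± 2.01 TPM in Atm MT and 29.2 ± 4.30 TPM in WT (log2 −1.41 ± 0.20, adjusted p = 0.00355), and 11.1 ± 3.40 TPM in DM and 33.6 ± 8 TPM in Sf3b1 MT. Pink1, the mitochondrial kinase that starts mitophagy, averaged 13.9 ± 1.98 TPM in Atm MT and 24.5 ± 3.53 TPM in WT (log2 −0.77 ± 0.14, adjusted p = 0.0200), and 15.4 ± 1.51 TPM in DM and 33.2 ± 4.02 TPM in Sf3b1 MT. Sh3bgrl3, a small thioredoxin-fold protein, had 438, 543 and 619 TPM as lowest, median and highest in Atm MT, against 1014, 907 and 1095 TPM in WT (log2 −0.91 ± 0.15, adjusted p = 0.0125). Hspa8, the constitutive Hsc70 chaperone, averaged 461 ± 74.8 TPM in Atm MT and 1125 ± 305 TPM in WT (log2 −1.26 ± 0.21, adjusted p = 0.0124). Its DM values of 672, 641 and 391 TPM came close to the 722, 837 and 805 TPM of Sf3b1 MT (log2 −0.51, adjusted p = 0.467). The ribosomal protein gene Rpl29 averaged 560 ± 52.3 TPM in Atm MT and 1013 ± 278 TPM in WT (log2 −0.82 ± 0.16, adjusted p = 0.0265), and since ribosomal protein genes have many processed copies, reads may be split among them. Lpar2, a receptor for lysophosphatidic acid, averaged 2.40 ± 0.576 TPM in Atm MT and 5.68 ± 0.567 TPM in WT (log2 −0.99 ± 0.17, adjusted p = 0.0144). Calls were lost without WT replicate 1 for Pink1, Sh3bgrl3, Hspa8, Lpar2 and Rpl29 (adjusted p = 0.0595 to 0.177), without WT replicate 2 for Lpar2, Apobec3, Hspa8 and Pink1 (adjusted p = 0.0586 to 0.0948), without WT replicate 3 for Rpl29 and Pink1 (adjusted p = 0.0798 and 0.112) and without Atm MT replicate 1 for Rpl29 (adjusted p = 0.0638). With Atm MT replicates 1 to 4 left out, Apobec3 passed and the other 6 did not (adjusted p = 0.0564 to 0.151). Median-ratio scaling ended the calls of Hspa8 and Rpl29 (adjusted p = 0.0522 and 0.0688), and a fit of only the 9 libraries those of Lpar2, Apobec3, Pink1 and Rpl29 (adjusted p = 0.0701 to 0.0998). Ifi202b, Apobec3 and Glo1 are known to differ in level between inbred mouse strains, and all libraries of the series carry the same strain label. The part of strain background in these genes was not tested. These genes, and all others outside the naming rule given with the processing, were singled out after their values were seen.

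The gene with the highest difference was Gm12191, annotated as a processed pseudogene of the ribosomal protein gene Rpl30. It measured 1218, 1887, 1062, 1156, 1094 and 1147 TPM in Atm MT, against 29.0, 0 and 26.7 TPM in WT (log2 7.04 ± 0.74, adjusted p = 3.62e-04). In DM it measured 1221, 903 and 1109 TPM, against 29.9, 18.3 and 18.6 TPM in Sf3b1 MT. All 9 libraries with the Atm lesion lay far above all 6 without it, and the call held in all 9 omissions and all 10 other settings. Rpl30 itself averaged 1697 ± 186 TPM in Atm MT and 1590 ± 174 TPM in WT, with overlapping groups (log2 0.09 ± 0.19, adjusted p = 0.940). In GENCODE M21 the Gm12191 gene and the coding sequence of Rpl30 are 99.7% identical. Gene-level TPM depend on how reads shared by such copies were assigned, which the sources used here do not give, so the level of either gene is uncertain.

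Atm lies on chromosome 9, and 8 of the genes that changed lie on the same chromosome. Of the 63 genes past the threshold with a position, 8 lay there (12.7%), against 5.70% of tested genes, and on chromosome 5 there were also 8 (12.7%, against 6.5%). Of the 62 tested genes with a position whose 9 libraries with the lesion lay wholly apart from the 6 without, 15 were on chromosome 9 (24.2%), against 9 on the next most frequent chromosome (14.5%). Of these 15, 5 were higher and 10 lower. Within 5 Mb of Atm lay 1 of them, Tspan3 (2.69 Mb, log2 −0.60, adjusted p = 0.188). Positions are measured from the start of Atm, negative toward lower coordinates, and the member farthest on the negative side was Nrgn (−15.89 Mb, log2 −1.12, adjusted p = 0.0741). Of the 15, 7 lay between 49.67 and 54.12 Mb: Rab6b (49.67 Mb), Cpne4 (51.11 Mb), Col6a4 (52.55 Mb), Dusp7 (52.93 Mb, log2 −0.74, adjusted p = 0.140), Rpl29 (52.99 Mb), Tmem115 (54.09 Mb, log2 −0.36, adjusted p = 0.351) and Tusc2 (54.12 Mb, log2 −0.44, adjusted p = 0.197). Of 67 tested genes within 5 Mb of either end of Atm, 0 passed in limma and 15 had an unadjusted p under 0.05 (22.4%, 8 higher and 7 lower), against 11.3% of all tested genes, with a median log2 difference of 0.01. Il18 (log2 1.49, adjusted p = 0.117), an inflammatory cytokine at −2.88 Mb, measured 17.9, 24.3, 19.3 and 23.4 TPM in Atm MT replicates 1 to 4 and 6.79 and 5.47 TPM in replicates 5 and 6, against 3.74, 2.99 and 7.24 TPM in WT. Its Atm MT values divided as the macrophage markers did, and the part of those cells in them was not tested. Cd276, a B7-family ligand on the other side, averaged 0.450 ± 0.270 TPM in Atm MT and 1.31 ± 0.229 TPM in WT (log2 −0.69, adjusted p = 0.0806). The position of these genes was examined after their values were seen.

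**Figure D5:**
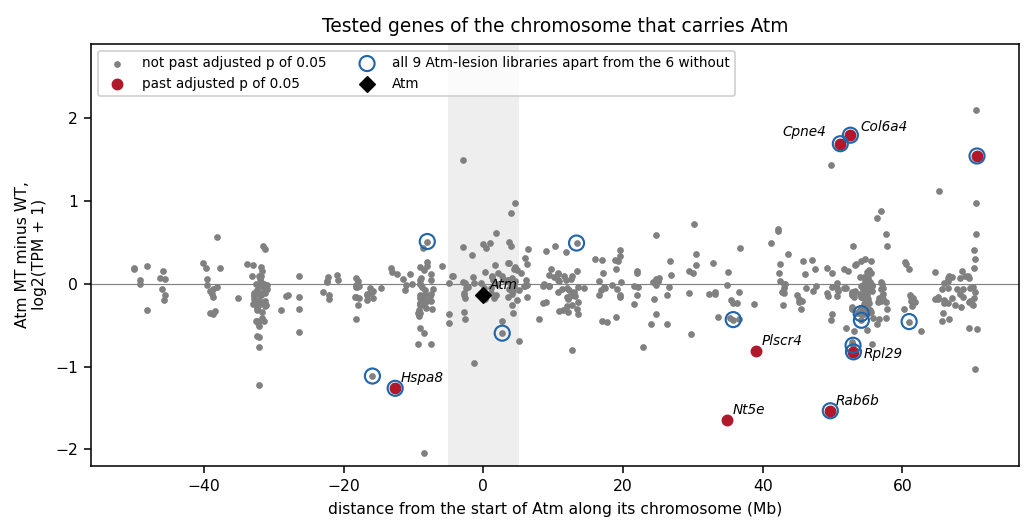
Log2 difference of the 555 tested genes of chromosome 9 in Atm MT minus WT against their distance in megabases from the start of Atm (black diamond; grey band, 5 Mb to each side). Red points passed an adjusted p of 0.05, and blue rings mark genes whose 9 libraries with the Atm lesion lie wholly apart from the 6 without. No red point falls in the grey band. Of the 15 rings, 1 falls in it (Tspan3) and 7 lie between 49.67 and 54.12 Mb.

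The lists of DNA damage genes held 0 or 1 changed gene each, beside a share of 0.647% over all tested genes. Of 26 tested p53 targets Fas fell and 0 rose, 1 was higher and 4, Fas included, were lower at an unadjusted p under 0.05, and the median log2 difference was −0.06, near the −0.05 of all genes. Mdm2 averaged 12.6 ± 2.83 TPM in Atm MT and 17 ± 4.05 TPM in WT (adjusted p = 0.415), and Sesn1, a stress-induced inhibitor of mTORC1, 34.8 ± 8.18 TPM in Atm MT and 22.7 ± 3.03 TPM in WT (adjusted p = 0.258). Of 30 genes of break signalling and repair 0 passed and 1 was higher at an unadjusted p under 0.05 (median −0.07). That gene was Trp53, which encodes p53, with 40.9 ± 7.59 TPM in Atm MT and 27.6 ± 8.48 TPM in WT (log2 0.57, adjusted p = 0.419). Of 12 genes of class switching 0 passed and Apex2, an endonuclease of base excision, was lower at an unadjusted p under 0.05 (median −0.07). The 16 genes of the BCL2 family, which set the threshold for apoptosis, had a median of −0.21 with 0 passing and 1 at an unadjusted p under 0.05, the p53 target Bbc3 at 1.48 ± 0.585 TPM in Atm MT and 2.40 ± 0.895 TPM in WT (adjusted p = 0.419). Of 17 death receptors and caspases Fas alone passed (median −0.16).

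Among lists of B-cell identity and function, that of age-associated and memory B cells held 3 falls, and the others 0 or 1. Their counts and medians stand beside 0.647% passing, 11.3% at an unadjusted p under 0.05 and a median of −0.05 over all tested genes. All lists were chosen with earlier results of these data known, so the counts are a description only, and a gene can count in several lists. Of 15 tested genes that mark memory or age-associated B cells 3 fell (Tbx21, Nt5e and Fas) and 0 rose, 12 were below 0, and 8 were lower and 1 higher at an unadjusted p under 0.05. The median was −0.84, or −0.77 with Atm MT replicates 1 to 4 left out, when Tbx21 alone passed. Cd80, a costimulatory ligand of this list, averaged 9.07 ± 3.33 TPM in Atm MT and 17.6 ± 3.90 TPM in WT without passing (adjusted p = 0.138). Of 29 genes of B-cell receptor signalling 0 passed and 3 were lower at an unadjusted p under 0.05 (median −0.13), with Pik3cd, the lymphocyte PI3-kinase subunit p110δ, at 18.6 ± 4.88 TPM in Atm MT and 32.1 ± 4.13 TPM in WT (adjusted p = 0.0999). Of 13 inhibitory receptors 0 passed, and 2 were higher and 3 lower at an unadjusted p under 0.05 (median −0.11). Fcgr2b, the inhibitory Fc receptor, averaged 108 ± 19.9 TPM in Atm MT and 177 ± 16.9 TPM in WT (adjusted p = 0.0838), and Cd22 206 ± 61.2 TPM in Atm MT and 359 ± 77.8 TPM in WT (adjusted p = 0.138), with no overlap of libraries in either. Of 22 B-lineage transcription factors Tbx21 alone passed (median −0.14), and Irf8 averaged 123 ± 31.2 TPM in Atm MT and 222 ± 58.4 TPM in WT (adjusted p = 0.1). In 23 marginal zone and follicular genes 0 passed and 3 were lower at an unadjusted p under 0.05 (median −0.06), among them the chemokine receptor Ccr7 at 37.5 to 86.4 TPM in Atm MT, against 136, 95.2 and 174 TPM in WT (log2 −1.19, adjusted p = 0.201). Among 11 B-1 and leukaemia genes 0 passed and Cd44 and Spn were lower at an unadjusted p under 0.05 (median −0.15), and among 10 plasma-cell genes 0 passed and 1, Slamf7, was lower (median −0.04).

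All 14 tested genes of MHC class II presentation had log2 differences below 0, although 0 passed and 3 were lower at an unadjusted p under 0.05 (median −0.28, or −0.05 with Atm MT replicates 1 to 4 left out). H2-Ab1 averaged 2322 ± 269 TPM in Atm MT and 3734 ± 783 TPM in WT with no overlap (log2 −0.67 ± 0.20, adjusted p = 0.148). In the unfolded protein response 17 of 21 genes were below 0, 0 passed and 7 were lower at an unadjusted p under 0.05 (median −0.30 with and −0.30 without Atm MT replicates 1 to 4), among them the ER membrane protein Herpud1 with 70.8 ± 23.2 TPM in Atm MT and 130 ± 15.7 TPM in WT (adjusted p = 0.0902). In cell cycle and mitosis 26 of 30 genes were below 0 with 0 passing and 1 at an unadjusted p under 0.05, the D-type cyclin Ccnd3 (median −0.31). Of 32 subunits of oxidative phosphorylation 30 were below 0, with 0 passing and 3 lower at an unadjusted p under 0.05 (median −0.13). Over all genes 58.9% were below 0. Of 34 interferon-stimulated genes Cxcl10 fell and 0 rose, with 5 lower and 1 higher at an unadjusted p under 0.05, and the median turned with the libraries taken: −0.18 with all, 0.50 without Atm MT replicates 1 to 4 and −0.54 without replicates 5 and 6. Of 22 NF-κB subunits and feedback genes Traf1 fell and 18 were below 0 (median −0.26, or 0.03 without Atm MT replicates 1 to 4).

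In metabolism and signalling, Cyp39a1 was the member of the 22 oxysterol and cholesterol genes that passed, and 17 of the 22 were below 0 (median −0.17, or 0.17 without Atm MT replicates 1 to 4). Nr1h3, which encodes the oxysterol receptor LXRα, measured 3.64, 6.37, 8.83 and 7.36 TPM in Atm MT replicates 1 to 4 and 0.82 and 0.33 TPM in replicates 5 and 6, against 0, 0.83 and 1.01 TPM in WT (adjusted p = 0.231). Glo1 was the member of the 21 antioxidant and redox genes that passed (median −0.22). Hmox1 of the same list, haem oxygenase 1, abundant in red pulp macrophages, averaged 189 ± 140 TPM in Atm MT and 25.6 ± 12.7 TPM in WT (adjusted p = 0.179). Fzd6 was the 1 of 15 Frizzled and Wnt genes that passed, and no other was at an unadjusted p under 0.05 (median −0.15). Among 18 Toll-like receptor genes 0 passed and 2 were higher and 2 lower at an unadjusted p under 0.05 (median 0.06), and among 25 immediate early genes 0 passed, 1 was higher and 2 lower (median −0.11). In all, 14 of the 23 functional lists had no member past the threshold.

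Promoters were searched for 4 short motifs in the window from 250 bases before to 50 bases after the RefSeq start (GRCm38.p6), on both strands. Windows of a single chromosome were left out, for changed genes and background alike. That gave windows for 35 falls, 14 rises and 7776 tested genes. The T-box core GGTGTGA, the motif that T-bet binds, was in 2 of the falls (Dnm3 and Vgll4; 5.71%) and 0 of the rises, against 3.36% of all windows. The interferon-response core, GAAA with any 2 bases before a second GAAA, was in 2 falls (Cxcl10 and Apobec3; 5.71%) and 1 rise (Aif1; 7.14%), against 3.32%. The NF-κB motif, GGGA with any base before TTTCC, was in 1 fall (Lpar2; 2.86%) and 0 rises, against 0.476%, and the p53 half-site was in 2 falls (Abcb1b and Tnfsf13b; 5.71%) and 0 rises, against 6.60%. With so few windows these shares are a description only, and a match describes letters, not binding. The windows of Dnm3 (chr1:162477985-162478284, minus strand) and Cxcl10 (chr5:92348840-92349139, minus strand) are shown for the T-box and the interferon core, each being the fall with that motif that had the lower log2 difference, with the motif in capitals.
Dnm3: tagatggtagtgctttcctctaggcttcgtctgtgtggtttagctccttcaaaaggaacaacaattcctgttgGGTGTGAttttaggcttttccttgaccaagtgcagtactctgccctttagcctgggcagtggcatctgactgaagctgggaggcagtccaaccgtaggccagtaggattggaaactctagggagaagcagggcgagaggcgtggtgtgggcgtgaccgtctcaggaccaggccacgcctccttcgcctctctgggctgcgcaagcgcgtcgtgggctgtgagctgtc
Cxcl10: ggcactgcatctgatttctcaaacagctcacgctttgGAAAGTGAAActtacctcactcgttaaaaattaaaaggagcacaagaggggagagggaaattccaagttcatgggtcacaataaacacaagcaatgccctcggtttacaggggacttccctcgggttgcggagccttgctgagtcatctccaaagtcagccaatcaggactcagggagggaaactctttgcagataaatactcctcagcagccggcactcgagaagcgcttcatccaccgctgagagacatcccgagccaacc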

How the data were processed

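Poly(A) RNA of B cells was sequenced from 17 libraries, per the labels. The authors deposited one table of TPM (length-corrected transcript shares) per gene symbol and library, made with STAR and build mm10 per the submitters' processing notes. The quantifier and annotation are not given in the sources used here. In the 9 libraries compared, the listed genes summed to 44.1% to 57.2% of the total a full TPM table would have, and depth is unknown. Of 18554 symbols, 3711 were at 0 in all libraries.

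From the deposited TPM, log2(TPM + 1) was tested with limma 3.58.1 (R 4.3.3, mean-variance trend, 2-sided) over 9898 genes with at least 1 TPM in at least 2 libraries. The fit took 15 libraries (Atm MT, DM, Sf3b1 MT and WT, sharing one estimate of the spread), without the leukaemic DM-CLL libraries, with no covariate. P-values were adjusted by Benjamini-Hochberg over all 9898 genes, and the threshold was 0.05. The script was tested on simulated data. Tables and plots used Python 3.11.15 with pandas 2.3.3 and matplotlib 3.10.9, and 18288 symbols matched 1 GENCODE M21 gene for position.

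The text names Atm, then genes past the threshold whose groups do not overlap and whose higher group averages at least 3 TPM (up to 12 rises and 16 falls by log2 difference, which gave 11 and 16, of which 1 rise is not reported here), leaving out pseudogenes and predicted genes, antigen receptor segments, genes of the mitochondrion and Y chromosome, and Xist, and then members of the gene lists that passed or, in lists with none, up to 3 with the smallest p. The members compared, the lists and the marker genes were chosen with earlier results of these data known. The contrast of DM with Sf3b1 MT, the omissions of Atm MT replicates 1 to 4 or 5 and 6, Xist as a covariate and the count of genes with all libraries with the lesion apart were chosen after the data were seen. Other settings tried were the low-value filter dropped, a pseudocount of 0.1, scaling by median ratios, a replicate block and a fit of the 9 libraries only. Library weights and omission of each library in turn were also tried, as was removal of immunoglobulin genes (Ighv1-72 and Igkv4-71) with each library rescaled.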

Additional observations from a re-analysis of the deposited data

Results flagged for a closer look

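In 76 genes, the 6 Atm MT libraries were searched for a single library far from the rest on the log2 scale by Dixon's criterion at the 95% level. Chance marks about 1 in 20 groups. Ramp3 in Atm MT replicate 4 measured 4.13 TPM, where the other 5 Atm MT libraries were at most 0.40 TPM. Gm12191 in Atm MT replicate 2 measured 1887 TPM, where the other 5 lay between 1062 and 1218 TPM. Ramp3 passed without replicate 4 and Gm12191 without replicate 2.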

How the results depend on the processing

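In Atm MT against WT, 64 genes passed (20 higher, 44 lower). Omitting 1 library gave totals between 19 and 198, with 6 to 102 higher and 12 to 96 lower. Of the 64 themselves, 18 still passed when WT replicate 1 was dropped, 22 when it was replicate 2 and 41 when it was replicate 3. Dropping 1 Atm MT library kept between 43 (replicate 1) and 64 (replicate 6) of them. The lowest totals came without WT replicate 1 (19) or 2 (24), and the highest with replicate 6 of Atm MT omitted (198). Leaving out Atm MT replicates 1 to 4, 40 passed (7 higher, 33 lower; 20 of the 64), and leaving out replicates 5 and 6, 423 (198 higher, 225 lower). A fit of only the 9 libraries gave 26 (9 higher, 17 lower), library weights 234 (120 higher, 114 lower) and Xist as a covariate 97 (30 higher, 67 lower). A pseudocount of 0.1 gave 57, no filter 77 and median-ratio scaling 62 (37.1% higher, against 31.2%). Removal of immunoglobulin genes, with each library rescaled to the same total, gave 64. It took out only Ighv1-72 and Igkv4-71, so it does not measure the effect of immunoglobulin RNA. Of the 64, 52 remained with the pseudocount of 0.1, 46 with no filter and 52 with scaling. In the fit of 9 libraries 24 remained, with weights 63, and with the immunoglobulin removal and rescaling 55. In Atm MT against Sf3b1 MT, 161 passed (115 higher, 46 lower), against 104 (61 higher) with no filter, 401 (234 higher, 167 lower) with scaling, 11 (7 higher, 4 lower) without Atm MT replicates 1 to 4 and 108 lower with the replicate block. The test of the Atm effect between Sf3b1 backgrounds gave 0 genes, but 5 (5 higher) with no filter and 1 (1 higher) without Atm MT replicates 1 to 4. No gene with a call changed sign. Of 608 medians of the 32 lists across settings, 588 stayed within 1 SD of the main value and 20 moved, while 44 changed sign. DM against Sf3b1 MT called 12, against 4 with no filter, 16 with scaling and 26 without Atm MT replicates 1 to 4. The cause of these shifts was not tested.

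The sources used here do not say whether equal replicate numbers mark paired libraries. The deviations of same-numbered Atm MT and WT libraries correlated at 0.121, 0.000567 and 0.0249 for numbers 1 to 3. Of these 3 Atm MT libraries, 1 correlated best with its own number. A replicate block on these numbers gave 303 genes (89 higher, 214 lower). Depth is unknown, so the precision of low TPM cannot be given, and changes of genes under about 1 TPM rest on few reads.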
